A study of Mus musculus with 3 samples.

Results

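The genes followed were Gnat1, Gnb1, Gngt1, Cnga1, Cngb1, Sag and Pdc of the rod phototransduction cascade, 7 of the 18545 genes measured. They were listed by name, with earlier results of these data known, and were read in rods and, as rod RNA found among other cells, in the remaining clusters of a mouse retina single-cell RNA-seq experiment. In rods Gngt1 was highest in the TMB library and Gnb1, Cnga1 and Cngb1 were highest in WT. The clearest difference lay beside the list, in Gnb3, the cone and ON bipolar counterpart of Gnb1, which had 82.3 UMIs per 1000000 UMIs of the cluster (CPM) in WT rods and 683 in rd10-vehicle rods. Outside rods the members did not travel together. Sag, Pdc and Gngt1 were abundant in cones and Gngt1 also in several cone bipolar clusters, while Cngb1, at low levels, was raised relative to Gnat1 in rod bipolar and other bipolar clusters. To a smaller extent Cngb1 was also raised in endothelial-like cells of the rd10 libraries.

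Light absorbed in the rod outer segment leads to activation of transducin, a G protein of the alpha subunit Gnat1, the beta subunit Gnb1 and the gamma subunit Gngt1. Activated transducin alpha switches on the phosphodiesterase PDE6, cGMP falls and the cyclic nucleotide-gated channel of Cnga1 and Cngb1 subunits closes. Arrestin (Sag) helps to end the light response, and phosducin (Pdc) binds the transducin beta and gamma subunits. Cones use their own genes for many of these steps, among them Gnat2, Gnb3, Gngt2, Arr3, Cnga3 and Cngb3, while mouse cones are known also to make the rod arrestin and phosducin.

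The experiment compared 3 libraries, each from pooled retinas of 8-week-old mice labelled C57BL/6J and kept in the dark for life. WT mice were untreated and ate plain chow, rd10-vehicle mice were female and ate the same base chow, and rd10-TMB mice were female and took tamsulosin, metoprolol and bromocriptine in the chow. The rd10 genotype is a point mutation of Pde6b, the rod PDE6 beta subunit, which the 3′ tags counted here do not show, so the genotype could not be checked from the counts. The labels give 1 retina from each of 4 mice per pool, whereas the study's methods give fewer mice for the rd10 pools and both sexes for the WT pool. Below, values stand in the order WT, rd10-vehicle and rd10-TMB, the rd10 libraries also being written as vehicle and TMB. With 1 library per group the library and the group cannot be told apart, no test between groups was possible, and every interval given is a 95% interval for counting error only. Overlapping intervals of levels do not by themselves show that the levels are equal.

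The libraries held 4478 WT, 5952 rd10-vehicle and 4812 rd10-TMB cells, with between 18882951 and 37002532 UMIs each, and 25 cell barcodes occurred in more than 1 library. The rod cluster of the deposited annotation raised 12 of 12 rod markers and held 1180, 556 and 746 cells, or 26.4%, 9.34% and 15.5% of the cells in WT, rd10-vehicle and rd10-TMB. Rods were shallow in every library, with a median of 1406 to 1536 UMIs per cell, and they supplied 9.52%, 2.33% and 4.33% of all UMIs in that order. The 7 genes made up 3.57% of the UMIs of WT rods, 3.75% of those of rd10-vehicle rods and 4.03% of those of rd10-TMB rods. Only 65.5% of all member UMIs in the WT library lay in rods, 34.6% in the rd10-vehicle library and 47.2% in the rd10-TMB library.

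To show where the members differ in upstream sequence, stretches before 5 of their annotated transcription starts are given, 5′ to 3′ on the gene's strand, from RefSeq on build GRCm38.p6. The starts used for Sag and Gngt1 lie 5537 and 4926 bases inside the outer boundary of the gene, so these stretches are within the annotated gene. Capitals mark TAATCC, or GGATTA where the same letters lie on the other strand, the core of the motif bound by the photoreceptor homeobox factor CRX. The Sag stretch lies at chr1:87803580-87803679 (+), Cngb1 at chr8:95306586-95306685 (-) and Pdc at chr1:150319317-150319416 (+), each 100 bases long and ending at the base before the start. For Gngt1 and Cnga1 the 30 bases around the match are shown, at chr6:3993952-3993981 (+) and chr5:72642963-72642992 (-).
Sag: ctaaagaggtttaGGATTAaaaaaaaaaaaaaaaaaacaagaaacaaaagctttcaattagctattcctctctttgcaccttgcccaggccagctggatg
Cngb1: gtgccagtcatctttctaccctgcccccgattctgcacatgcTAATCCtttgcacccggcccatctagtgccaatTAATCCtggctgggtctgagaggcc
Pdc: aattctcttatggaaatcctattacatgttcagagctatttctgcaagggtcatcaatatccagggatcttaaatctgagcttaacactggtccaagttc
Gngt1: tcatattaggggGGATTAtgaagaagcttt
Cnga1: agtgtctcatttTAATCCtaatgataaact
Of the 7 genes 6 had an entry, and 4 of those 6 held the letters within the 250 bases before the start, Cngb1 at 2 places that begin 58 and 25 bases upstream. The same letters were found in the 250 bases before the start of 2054 of 32851 genes' windows, or 6.25%, so a match is a description of the sequence and not a binding site. Gnb1 and Pdc had no match in this window.

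The alpha subunit Gnat1 (chr9:107674437-107679634) was close to level across the rods of the 3 libraries. It stood at 4375 CPM in WT (4279 to 4473), 4521 with vehicle (4380 to 4665) and 4328 with TMB (4214 to 4445), and these intervals overlapped for every pair. The log2 ratio of rd10-vehicle over WT was 0.05 (-0.01 to 0.10). Gnat1 was the member at the median of the 7 in both comparisons with WT.

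The beta subunit Gnb1 (chr4:155491300-155559269) was highest in WT rods. Its level was 3795 CPM in WT (3705 to 3886), 3046 with vehicle (2931 to 3165) and 3288 with TMB (3189 to 3389), and none of the 3 intervals overlapped another. The log2 ratio to WT was -0.32 (-0.38 to -0.25) with vehicle and -0.21 (-0.26 to -0.15) with TMB. Within rods there were 0.867, 0.674 and 0.760 Gnb1 UMIs for each Gnat1 UMI in WT, rd10-vehicle and rd10-TMB.

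The gamma subunit Gngt1 (chr6:3989082-3997436) was the member with the largest difference between the rd10 libraries. Rods held 7308 CPM in WT (7184 to 7434), 8021 with vehicle (7833 to 8213) and 10114 with TMB (9940 to 10291). All 3 intervals were apart, with rd10-TMB highest. On the log2 scale rd10-TMB was above WT by 0.47 (0.43 to 0.50) and above rd10-vehicle by 0.33 (0.29 to 0.38). Against the 483 WT rods with an Xist UMI and no Y-linked one, closer in sex to the female rd10 pools, the first ratio was 0.61. That filter was applied to WT cells only, and the part of cell depth in it was not tested. Over all alternatives run, the first ratio lay between 0.18 and 0.61. Each Gnat1 UMI was met by 1.67 Gngt1 UMIs in WT, 1.77 with vehicle and 2.34 with TMB. UMIs of different genes are captured with different efficiency, and such a ratio is read across libraries, not as the makeup of the complex.

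Both subunits of the cGMP-gated channel were highest in WT rods. Cnga1 (chr5:72603696-72642752) had 2178 CPM in WT (2110 to 2247), 1916 with vehicle (1824 to 2011) and 2033 with TMB (1955 to 2113), and the rd10-TMB interval overlapped both others while WT and rd10-vehicle were apart. Cngb1 (chr8:95239043-95306585) had 1039 CPM in WT (992 to 1087), 807 with vehicle (749 to 870) and 948 with TMB (895 to 1003). The rd10-vehicle rods were lowest for both genes, and for Cngb1 their interval lay below both others. The log2 ratio of rd10-vehicle over WT was -0.18 (-0.27 to -0.10) for Cnga1 and -0.36 (-0.49 to -0.24) for Cngb1. For rd10-TMB over WT, Cnga1 was at -0.10 and stayed below 0 in every alternative run (-0.15 to -0.04). For Cngb1 the rd10-TMB rods lay 0.23 (0.10 to 0.37) above rd10-vehicle, whereas for Cnga1 that interval included 0 (0.09, -0.00 to 0.18).

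Arrestin and phosducin, which restrain signalling in the cascade, were both higher in the rd10 rods. Sag (chr1:87798143-87845158) stood at 7903 CPM in WT (7773 to 8034), 9047 with vehicle (8848 to 9251) and 9093 with TMB (8927 to 9260.5). Pdc (chr1:150319417-150333906) stood at 9104 in WT (8965 to 9244), 10116 with vehicle (9905 to 10331) and 10496 with TMB (10318 to 10676). For both genes the WT interval lay below those of the rd10 libraries. The rd10 libraries did not differ beyond counting error in Sag (log2 ratio 0.01, -0.03 to 0.05) and were 0.05 (0.01 to 0.09) apart in Pdc. In the 289, 123 and 205 rods with at least 1000 detected genes, the direction turned for Pdc in rd10-vehicle over WT (-0.08), as it did for Gngt1 (-0.14). The rods held 1.81 Sag UMIs per Gnat1 UMI in WT, 2 with vehicle and 2.10 with TMB. A gene that overlaps Pdc, 2310030A07Rik, had 8, 1 and 6 UMIs in the rods of the 3 libraries, and its part in the Pdc level was not tested.

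**Figure D1:**
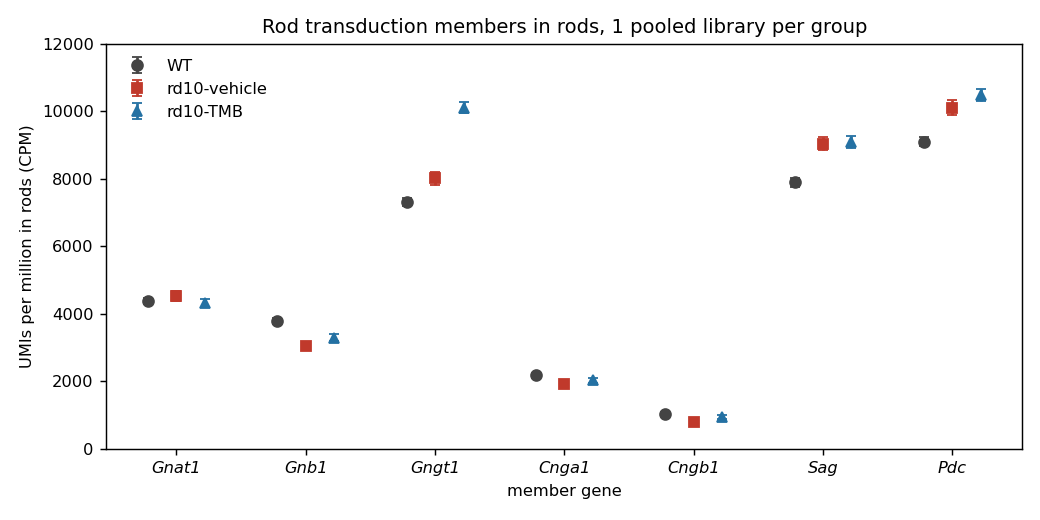
Level of each of the 7 genes in rods, in CPM, for the WT, rd10-vehicle and rd10-TMB libraries; points are sums over the rods of 1 pooled library and bars are exact 95% Poisson intervals. Gngt1 was highest in rd10-TMB at 10114 CPM, Sag and Pdc were higher in both rd10 libraries, and Gnb1, Cnga1 and Cngb1 were highest in WT.

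No member passed 1.5-fold in any comparison of rods. In rd10-vehicle over WT it was 0 of 7, where 14.2% of the 6623 genes with enough UMIs did so in either direction. In rd10-TMB over WT it was 0 of 7 beside 11.7% of genes, and in rd10-TMB over rd10-vehicle 0 of 7 beside 6.92%. The median log2 ratio of the 7 was 0.05, -0.02 and 0.09 in these comparisons, against -0.05, -0.05 and 0.02 over all genes compared. With WT limited to the Xist-positive rods, Gngt1 passed the limit in rd10-TMB over WT. The comparisons with WT share the WT library.

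The other genes of the cascade gave similar small ratios. Of 14 such genes, 1 passed 1.5-fold between rd10-vehicle and WT: Rgs9bp, the anchor of the GTPase-activating complex that shuts transducin off, at 506 CPM in WT, 320 with vehicle and 408 with TMB. Gnb5, the beta subunit of that complex, was at 793, 600 and 661 CPM in the same order. The kinase Grk1 was at 750, 647 and 602 CPM. At the other end Rcvrn, the calcium sensor of that kinase, was above WT by 0.26 in rd10-vehicle and 0.23 in rd10-TMB on the log2 scale. The median over the 14 was -0.13 for rd10-vehicle over WT, -0.15 for rd10-TMB over WT and 0.09 for rd10-TMB over rd10-vehicle, and 3, 6 and 9 of the 14 lay above 0.

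Nearly every rod carried most of the members even after each cell was thinned to 1000 UMIs, which kept 954 WT, 488 rd10-vehicle and 666 rd10-TMB rods and left out 226, 68 and 80 shallower ones. At least 5 of the 7 were seen in 98.3%, 96.3% and 98.6% of these rods, and all 7 in 52.3%, 41.2% and 41.0%. Cngb1 limited the full set: 63.6% of WT rods had a Cngb1 UMI (60.5 to 66.7), 55.5% of rd10-vehicle rods (51.0 to 60.0) and 56.6% of rd10-TMB rods (52.7 to 60.4), against 73.8%, 66.2% and 72.7% without thinning. Its share in endothelial-like cells at the same depth, a type that should lack the channel, was 0.741%, 1.92% and 2%. Gnb1 was seen in 96.0% of WT rods, 91.4% of rd10-vehicle rods and 93.2% of rd10-TMB rods. Endothelial-like cells had it in 31.9%, 19.9% and 22%, which for a beta subunit used by many cell types is no measure of free RNA.

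The counterpart of Gnb1 differed far more than Gnb1 itself. Gnb3 (chr6:124834240-124840275) had 148 UMIs in WT rods, 588 in rd10-vehicle rods and 411 in rd10-TMB rods. These are 82.3 CPM (69.6 to 96.7), 683 CPM (629 to 741) and 325 CPM (295 to 358), and the 3 intervals were far apart. On the log2 scale rd10-vehicle was 3.05 above WT (2.79 to 3.32), rd10-TMB was 1.98 above WT (1.71 to 2.26), and rd10-TMB over rd10-vehicle was -1.07 (-1.26 to -0.89). Gnb1 UMIs per Gnb3 UMI numbered 46.1 in WT, 4.46 with vehicle and 10.1 with TMB, so Gnb1 remained the more counted beta subunit in each library. Gnb3 belonged to the list of cone counterparts and was singled out after its values were seen.

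Gnb3 was spread over many rods of the rd10 libraries. After thinning, 5.35% of WT rods had a Gnb3 UMI (4.01 to 6.97), 41.6% of rd10-vehicle rods (37.2 to 46.1) and 20.4% of rd10-TMB rods (17.4 to 23.7). At the same depth the share was 2.96%, 1.92% and 0% (0 to 3.62) in endothelial-like cells. In Müller glia-like cells it was 3.23%, 4.81% and 4.00%. The rods with Gnb3 also carried rod RNA: 88.2%, 95.6% and 94.1% of the 51, 203 and 136 such cells had a Gnat1 UMI, and 94.1%, 88.2% and 94.1% had Gnb1. In rd10-vehicle the rods with Gnb3 held 2.56 Gnb1 UMIs per cell (2.35 to 2.79) and those without it 3.38 (3.17 to 3.60). Gnat1 was also lower in them, at 4.11 UMIs per cell (3.83 to 4.40) against 4.76 (4.51 to 5.03). In rd10-TMB the Gnb1 means were 2.84 (2.56 to 3.14) and 3.18 (3.03 to 3.34), whose intervals overlapped, and in WT they were 3.67 and 3.80. Gnat1 in rd10-TMB was at 3.80 (3.48 to 4.14) in rods with Gnb3 and 4.36 (4.18 to 4.54) in those without it, intervals that were apart. Sag did not follow Gnat1 in the rd10 libraries. With and without Gnb3 it was at 8.86 (8.46 to 9.28) and 9.26 (8.91 to 9.62) with vehicle, and at 9.40 and 9.04 with TMB. In WT Sag was at 6.57 (5.88 to 7.31) and 8.12 (7.93 to 8.30).

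Gnat2, Gngt2, Arr3 and Gng13, further cone and ON bipolar cascade genes, showed no such difference in rods, where the intervals of their log2 ratios included 0 in all 3 comparisons. Gnao1, the G protein alpha subunit of ON bipolar cells, was lower in rd10-vehicle than in WT rods (log2 ratio -0.63, -1.30 to -0.06). Gnat2, the cone transducin alpha subunit, was at 23.4 CPM in WT, 25.6 with vehicle and 26.9 with TMB. The cone gamma subunit Gngt2 was at 50.6, 54.6 and 48.3 CPM, and the cone arrestin Arr3 at 64.0, 79.0 and 58.6 CPM. Gng13, the gamma subunit of ON bipolar cells, was at 81.8, 62.7 and 68.1 CPM, and the cone channel genes Cnga3 and Cngb3 had at most 9 UMIs in the rods of any library. The part of cone and bipolar RNA in the Gnb3 counts of rods was not tested. In the 833, 394 and 518 rods with no UMI of Arr3, Opn1sw, Gnat2, Gng13 or Trpm1, a choice made after seeing the data, the log2 ratios of Gnb3 were 2.97 for rd10-vehicle over WT, 2.01 for rd10-TMB over WT and -0.96 between the rd10 libraries.

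Gnb3 in rd10-vehicle also exceeded its WT level in all 9 other clusters with at least 50 cells per library, with the interval above 0 in 8 of them and log2 ratios from 0.18 in cone-like cells to 1.79 in Müller glia-like (MG) cells. MG-like cells had 18.4 CPM in WT, 64.5 with vehicle and 56.7 with TMB. Cone-like cells, where Gnb3 is the resident beta subunit, had 3062, 3478 and 2666 CPM, and rod bipolar-like cells 1588, 2182 and 1946 CPM. The rod ratio of 3.05 was above that of each of these clusters, its interval starting at 2.79 where that of MG-like cells ended at 2.21.

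**Figure D2:**
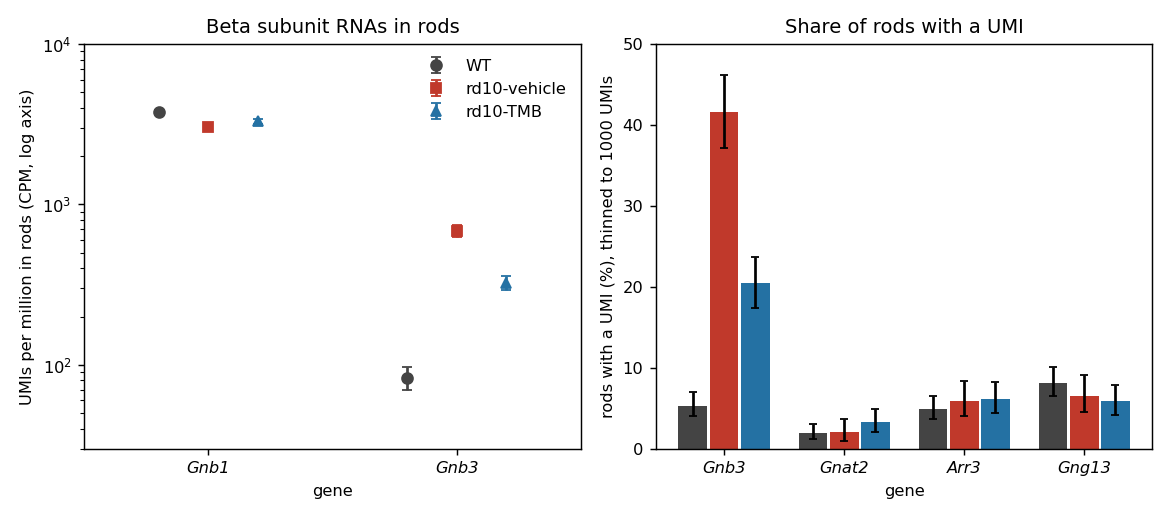
Left, levels of Gnb1 and Gnb3 in rods in CPM on a log axis with exact 95% Poisson intervals, 1 point per library; right, percent of rods with a UMI of Gnb3, Gnat2, Arr3 or Gng13 after thinning to 1000 UMIs, with exact 95% binomial intervals. Gnb3 stood at 82.3, 683 and 325 CPM in WT, rd10-vehicle and rd10-TMB, whereas the shares of rods with Gnat2, Arr3 or Gng13 stayed below 10% in each library.

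Outside rods, each of the other members was set against Gnat1, the transducin alpha subunit that cones replace with Gnat2, a choice made after seeing the data. The measure is the log2 excess of a member's UMI ratio to Gnat1 in a cluster over the same ratio in rods of that library. It would be 0 if rods of that library were the single source of both RNAs and carried them over in 1 ratio. Its intervals are approximate.

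Gnat1 itself was low in every cluster but rods. It was at 103 CPM in WT, 125 with vehicle and 126 with TMB in MG-like cells, and at 106, 68.6 and 83.3 CPM in cone-like cells. Across the 30 profiles of 10 clusters in 3 libraries, Nrl, the transcription factor of rod fate, had a pattern close to that of Gnat1 (Pearson r 0.99), a description over profiles that share 3 libraries. The excess of Cnga1 was mostly below 0, as in cone-like cells at -0.98 (-1.50 to -0.47), -0.34 (-0.77 to 0.10) and -0.53 (-0.96 to -0.10).

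Sag was an abundant RNA of cone-like cells. It reached 5072 CPM in WT, 4649 with vehicle and 4940 with TMB cone-like cells, an excess of 4.73, 5.08 and 4.82 over the rod ratio to Gnat1. For each UMI of cone arrestin Arr3 these cells held 1.07, 1.25 and 0.987 UMIs of Sag. After thinning, 97.4%, 94.7% and 97.5% of cone-like cells had a Sag UMI, against 8.15%, 7.05% and 10.0% of endothelial-like cells.

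Pdc followed Sag. Cone-like cells held 2926 CPM in WT (2838 to 3016), 2223 with vehicle (2166 to 2282) and 2365 with TMB (2301 to 2431), an excess of 3.73, 3.86 and 3.55. WT cones were highest, unlike in rods, and the log2 ratio of rd10-vehicle over WT was -0.40 (-0.45 to -0.34) in cone-like cells where it was 0.15 in rods. In the 8 other clusters with at least 50 cells per library Pdc lay below the rod ratio to Gnat1 in every library, as in rod bipolar-like cells at -1.11, -0.73 and -1.03, though with vehicle in cluster 8 the interval included 0. Sag and Pdc had the most similar patterns of any member pair over the 30 profiles (r 0.98).

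Gngt1 was present in cones and in part of the cone bipolar clusters. Cone-like cells had 3237 CPM in WT, 3507 with vehicle and 3903 with TMB, beside 1.90, 1.48 and 1.54 times as many UMIs of the cone gamma subunit Gngt2. The ON cone bipolar-like cluster had 2581, 2229 and 2722 CPM, an excess of 2.81, 4.30 and 3.12. An OFF cone bipolar-like cluster (cluster 8) had 1900, 1757 and 2055 CPM, and another (cluster 7) had 864, 878 and 1123 CPM. Rod bipolar-like cells had 113, 74.9 and 155 CPM and an excess of -0.58, -0.11 and -0.36. The unnamed clusters 6 and 10 were about as low, at 110, 96.0 and 181 CPM and at 117, 63.5 and 149 CPM.

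Cngb1 was the reverse, low in cone-like cells at 20.4, 19.1 and 20.7 CPM and higher in rod bipolar-like cells at 137, 135 and 130 CPM. The excess in rod bipolar-like cells was 2.52 (2.25 to 2.80) in WT, 4.05 (3.73 to 4.38) with vehicle and 2.81 (2.55 to 3.06) with TMB. The larger excess in rd10-vehicle stood beside a lower Gnat1 level in those cells, 45.5 CPM, and a Cngb1 level like that of the other libraries. Cngb1 was at a similar or higher level in the ON cone bipolar-like cluster (177, 201 and 228 CPM) and in the unnamed cluster 6, led by Igfn1, Cartpt and Vsx1 (160, 215 and 238 CPM). In none of these clusters did Cnga1, its partner in the rod channel, exceed the rod ratio to Gnat1 beyond counting error. The Cngb1 excess was also above 0 in endothelial-like cells with vehicle (1.76, 1.05 to 2.47) and TMB (0.88, 0.18 to 1.59). With vehicle it was above 0 in cone-like cells (0.64, 0.17 to 1.11) and cluster 10 (1.22, 0.15 to 2.29) too. These values rested on 26, 23, 49 and 10 Cngb1 UMIs, and in WT the interval included 0 in each of these clusters. The counts do not say which Cngb1 transcript was present, since only the 3′ end was tagged.

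Among the other clusters with at least 50 cells per library, Gnb1 exceeded the rod ratio most in endothelial-like cells. It had 332, 305 and 277 CPM there, an excess of 2.34, 4.25 and 3.01. In MG-like cells it had 202, 202 and 206 CPM and an excess of 1.17, 1.26 and 1.11. In cone-like and rod bipolar-like cells, which use Gnb3, the excess of Gnb1 lay between -0.17 and 0.24, with 109, 50.3 and 60.3 CPM in cone-like and 89.1, 34.0 and 57.4 CPM in rod bipolar-like cells.

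**Figure D3:**
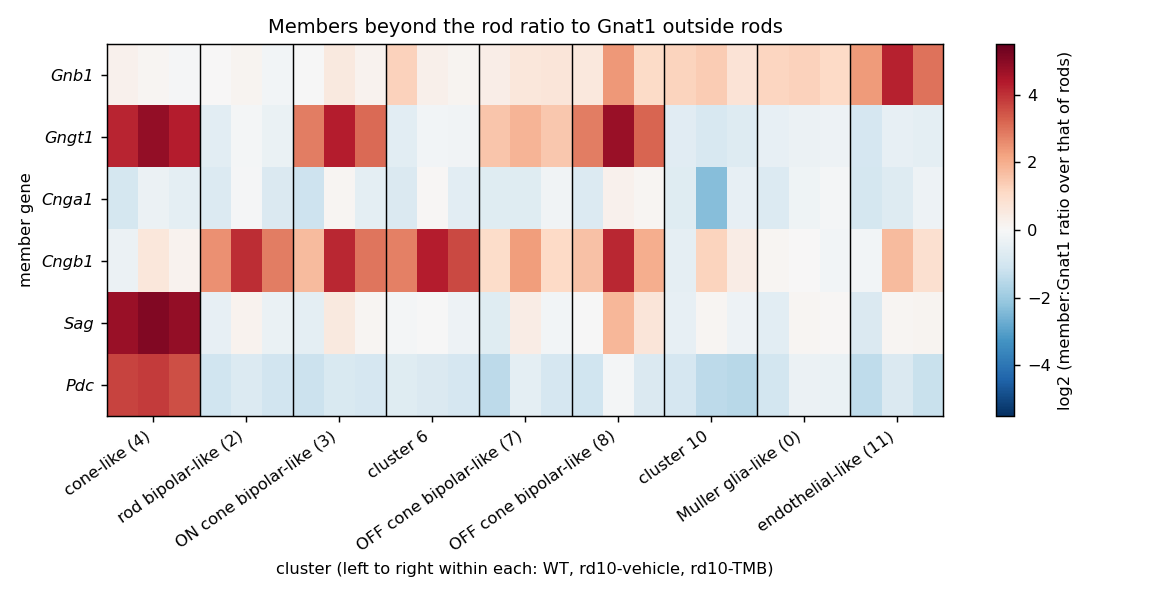
Log2 excess of each of the other 6 members' UMI ratio to Gnat1 over the same ratio in rods, by cluster (columns, with WT, rd10-vehicle and rd10-TMB from left to right within each) and gene (rows), as colour. Sag, Pdc and Gngt1 were high in cone-like cells (4.73, 3.73 and 4.19 in WT), Cngb1 mainly in bipolar clusters and Gnb1 in endothelial-like cells (2.34 in WT).

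**Figure D4:**
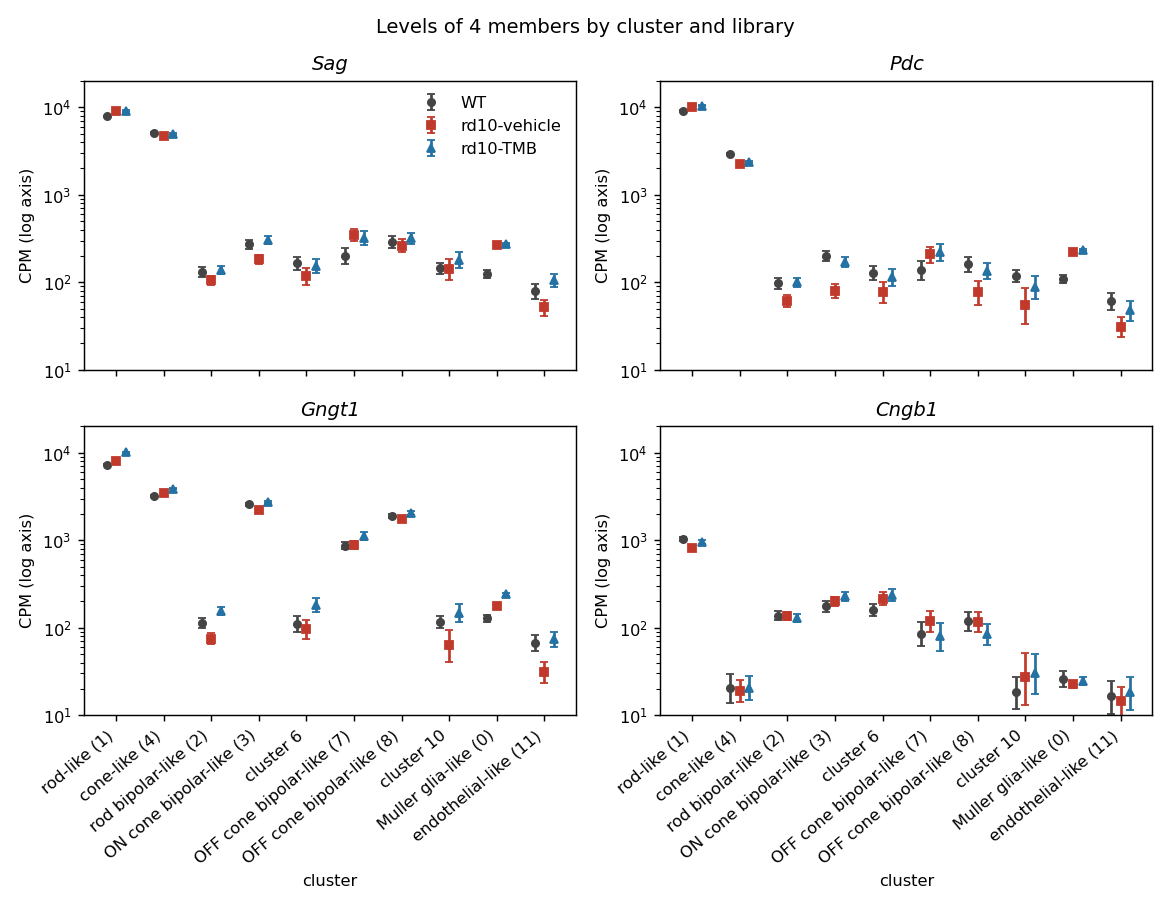
Levels of Sag, Pdc, Gngt1 and Cngb1 in CPM on a log axis in the 10 clusters with at least 50 cells in every library, with exact 95% Poisson intervals and 1 point per library. The genes spread differently outside rods, where Gngt1 reached 3237 CPM in WT cone-like cells and 113 CPM in WT rod bipolar-like cells.

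Rod RNA itself differed in amount between the libraries outside rods, and it moved in opposite directions in different cells. Gnat1 in rod bipolar-like cells was at 101 CPM in WT, 45.5 with vehicle and 84.8 with TMB, and in endothelial-like cells at 75.9, 23.8 and 45.3 CPM. As a share of the rod level these were 2.30%, 1.01% and 1.96% in rod bipolar-like cells, whereas MG-like cells stood at 2.36%, 2.77% and 2.90%. In rd10-TMB Gnat1 was above its rd10-vehicle level in all 9 other clusters, with log2 ratios of 0.0037 to 1.35 and the interval above 0 in 4 of them. In rd10-vehicle it was below its WT level in 8 of 9, with the interval below 0 in 7, MG-like cells being the exception at 0.27. The share of rods among the cells moved the same way, at 26.4%, 9.34% and 15.5%, and its part in these levels was not tested.

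In MG-like cells, 2 of 7 members were at least 1.5-fold higher in rd10-vehicle than in WT, beside 8.64% of the 12404 genes compared, and 0 of 7 were lower beside 9.31%. The higher members were Sag, at 125 CPM in WT, 267 with vehicle and 273 with TMB, and Pdc, at 108, 225 and 235 CPM. Their log2 ratios to WT in rd10-vehicle were 1.10 (0.96 to 1.25) and 1.05 (0.90 to 1.21). In rd10-TMB over WT, 4 of 7 were higher beside 6.64% of genes and 0 lower beside 8.46%, the further genes being Gngt1 at 0.91 (0.77 to 1.06) and Cnga1 at 0.84 (0.55 to 1.16). Gnat1 and Gnb1 were at 0.27 and -0.0021 for rd10-vehicle over WT. Sag and Pdc are also cone RNAs, and of 12 cone markers 10 were higher in MG-like cells of each rd10 library than of WT, with a summed level of 167, 315 and 359 CPM. The cone arrestin Arr3 was at 16.0, 28.6 and 39.6 CPM and the cone channel subunit Cnga3 was at 0 CPM in WT and below 1 CPM in the others. The part of cone RNA in the rise of Sag and Pdc was not tested. Between the rd10 libraries 0 of 7 passed 1.5-fold in either direction, beside 3.3% of genes. The median of the members was 0.47, 0.84 and 0.07 in the 3 comparisons, and that of the other cascade genes 0.31, 0.31 and 0.07.

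Photoreceptor RNA of MG-like cells was spread less evenly over cells in the rd10 libraries. The median MG-like cell had 1 UMI of 5 rod reference genes (Nrl, Nr2e3, Pde6a, Pde6g and Reep6) in each library. The set is not limited to rods, since cone-like cells held 2651, 2660 and 2509 CPM of it, mostly Pde6g, against 10359, 9963 and 10570 in rods. Cells with at least 20 such UMIs were 0 of 530 MG-like cells in WT, which allows a share of up to 0.566% (3 cells), against 2.41% with vehicle and 2.69% with TMB. In rod bipolar-like cells none of the 3 libraries had such a cell. MG-like cells were also shallower in WT, at a mean of 6264 UMIs per cell against 8908 with vehicle and 9598 with TMB, and the part of depth in these shares was not tested. The 5% of MG-like cells richest in these UMIs held 26.3%, 46.2% and 44.6% of them, and 65.8%, 60.2% and 69.1% of MG-like cells had at least 1. Without those cells, an alternative chosen after seeing the data, the member median in MG-like cells was -0.10 for rd10-vehicle over WT and 0.22 for rd10-TMB over WT, while Sag and Pdc remained above WT in rd10-vehicle at 0.59 (0.43 to 0.76) and 0.58 (0.40 to 0.77), the latter under the 1.5-fold limit. In rd10-TMB over WT, Sag (0.63) and Pdc (0.67) stayed past that limit without those cells, whereas Gngt1 (0.33) and Cnga1 (0.22) did not. With all cells kept and a mean over cells in place of the sum, the median for rd10-vehicle over WT was 0.11. The doublet calls of the study had been removed before deposit, and the source of the remaining photoreceptor RNA in these cells was not tested.

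**Figure D5:**
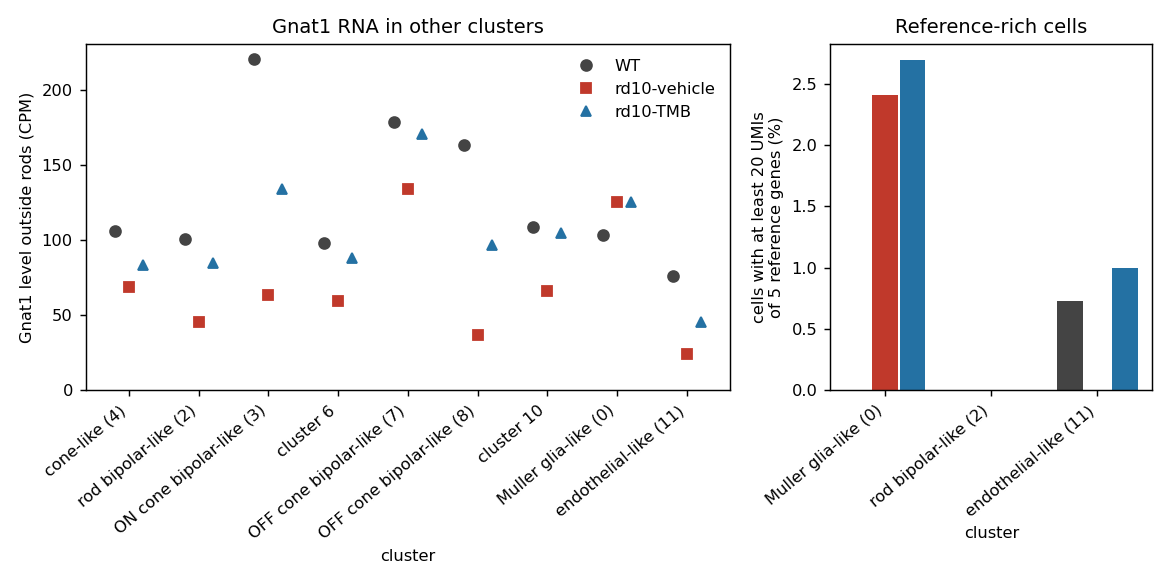
Left, Gnat1 level in CPM in the 9 clusters other than rods with at least 50 cells per library; right, percent of cells with at least 20 UMIs of the 5 rod reference genes in MG-like, rod bipolar-like and endothelial-like clusters. Such cells made up 0% of MG-like cells in WT, 2.41% with vehicle and 2.69% with TMB, while the bars of endothelial-like cells stand for 1 cell each.

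Gngt1 in rd10-TMB exceeded its rd10-vehicle level in all 9 other clusters as well, with every interval above 0 and log2 ratios from 0.15 in cone-like to 1.24 in endothelial-like cells. Since Gnat1 was higher there too, the ratio of Gngt1 to Gnat1 is given beside it. Relative to Gnat1, Gngt1 was higher in rd10-TMB by 0.40 (0.32 to 0.47) in rods and by 0.43 (0.33 to 0.54) in MG-like cells. The interval included 0 in rod bipolar-like cells (0.15, -0.25 to 0.55) and endothelial-like cells (0.33, -0.42 to 1.07). It lay below 0 in the ON cone bipolar-like cluster (-0.79, -1.16 to -0.41) and in the OFF cone bipolar-like cluster 8 (-1.17, -1.91 to -0.44), where Gngt1 was abundant and Gnat1 was not.

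Over the 30 profiles and 11376 genes, Pcmtd2 (r 0.97), Guca1b, Pde6a and Slc24a1 (each 0.96) had patterns close to the mean of the 7 members. Apart from Pcmtd2 these are genes of the rod cascade, Guca1b coding for a guanylate cyclase activator and Slc24a1 for the rod sodium, calcium and potassium exchanger. The nearest single genes were Abca4 for Gngt1 (0.94), Pde6g for Sag (0.98) and Rp1 for Pdc (0.98), all known from photoreceptor outer segments. Gnb1 and Cngb1 had weaker matches, Pdia5 (0.88) and Hnrnpu (0.86). Among the members, the transducin beta and gamma subunits had an r of 0.37 and Sag with Cngb1 one of 0.35, the lowest pair, while Gnat1 with Cnga1 reached 0.97.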

How the data were processed

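Retinal cells were captured with 10x Genomics v3 chemistry. The authors aligned reads to mm10 and counted UMIs with Cell Ranger 6.0.1, removed doublets with Scrublet, kept cells with at least 500 genes and clustered them in Seurat 3.2.2 after Harmony integration. The deposited matrix holds the natural log of 1 plus scaled UMIs, and the deposited per-cell table gives the UMI count, the gene count, library and cluster of each cell; cluster numbers were used as deposited. Whole UMIs were recovered from the matrix and the cell totals for all 32620606 entries, within 0.001. Cluster names were given from markers raised at least 2-fold.

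UMIs were summed per cluster and library and scaled to 1000000 per cluster and library (CPM). Log2 ratios carry a pseudocount of 1 UMI, and genes with at least 50 UMIs over the libraries compared were ranked. Poisson, binomial (Clopper-Pearson) and conditional ratio intervals at 95% are exact. PCR duplicates were collapsed by UMI. With 1 library per group no test was run. Computation used Python 3.11.15, numpy 2.4.6, scipy 1.17.1, pandas 2.3.3 and matplotlib 3.10.9. The ratio step was tested on Poisson counts simulated from the summed UMIs of rods.

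The 7 members and the gene lists were chosen with earlier results of these data known. Named genes were the members, the cascade, reference and counterpart genes with at least 50 UMIs in rods or cones, and the genes of most similar pattern (profiles of genes with at least 500 UMIs). Alternatives covered scaling, pseudocount, cell filters, thinning and the rod reference, and 3 were added after seeing the data. A gene of the lists is not reported here, and the planned comparison that needs it was replaced by one with Gnat1. Clusters with fewer than 50 cells in any library were not compared.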

Additional observations from a re-analysis of the deposited data

Results flagged for a closer look

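The log2 ratios of rd10-vehicle over WT for Pdc and Sag, which cones also express, had opposite signs in different clusters. For Pdc the log2 ratio was highest in MG-like cells, at 1.05, and lowest in the ON cone bipolar-like cluster, at -1.31. For Sag it was highest in MG-like cells, at 1.10, and lowest in endothelial-like cells, at -0.61. Without the 5% of MG-like cells richest in rod reference UMIs, which held 46.2% of those UMIs with vehicle and 26.3% in WT, the MG-like ratios were 0.58 for Pdc and 0.59 for Sag, and as a mean over cells 0.83 and 0.81. Each cluster had 1 library per group, and the difference between clusters was not tested.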

How the results depend on the processing

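No paired analysis was possible because each group is 1 pooled library. Of the medians and counts recomputed under an alternative, 118 were unchanged and 22 moved, and no value past the 1.5-fold limit changed sign. A median was unchanged if it stayed within counting error, and a count if it kept its value or nearly so. The 118 include alternatives that could not move the result. These were the limits of 20 and 200 UMIs for all genes, and a 2-fold limit where no member had passed 1.5-fold. In rods the member median for rd10-vehicle over WT was 0.13 with median-of-ratios scaling, 0.11 as a mean over cells and -0.18 in cells with at least 1000 genes, and for rd10-TMB over WT 0.047 with median-of-ratios scaling and -0.10 in cells with at least 1000 genes. With WT limited to cells with an Xist UMI and without any Y-linked one, 1 member, Gngt1 at 0.61, passed 1.5-fold for rd10-TMB over WT. In MG-like cells the median for rd10-vehicle over WT was 0.11 as a mean over cells, 0.18 after thinning and -0.099 without the 5% of cells with the most rod reference UMIs. For rd10-TMB over WT it was 0.22 without those cells. After thinning, Pdc for rd10-vehicle over WT (0.56) and Cnga1 for rd10-TMB over WT (0.46) were under the 1.5-fold limit in MG-like cells. For rd10-TMB over rd10-vehicle it was 0.14 as a mean over cells, 0.17 after thinning and -0.0037 without the 5% of cells with the most UMIs. In cone-like cells rd10-TMB over WT gave 0.12 as a mean over cells, -0.29 with at least 1000 genes, 0.041 at a mitochondrial share of at most 10% and -0.15 with the Xist-positive WT cells. In cone-like cells rd10-TMB over rd10-vehicle gave 0.42, 0.076 and 0.43 under the first 3 of these, 0.23 without the 5% of cells with the most UMIs and 0.32 after thinning. The cause of these moves was not tested.

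Over all alternatives run in rods, Gnb1, Cnga1, Cngb1 and Gnb3 kept their sign in every comparison, Gnb3 between 2.78 and 3.33 for rd10-vehicle over WT. Gngt1 kept its sign for rd10-TMB over rd10-vehicle (0.28 to 0.34) and over WT (0.18 to 0.61) and not for rd10-vehicle over WT (-0.14 to 0.28), where Pdc also crossed 0 (-0.08 to 0.23). Gnat1 crossed 0 in all 3 comparisons. With the sum of Nrl and Nr2e3 in place of Gnat1, the excess in WT cone-like cells was 5.17 for Sag, 4.18 for Pdc and 4.64 for Gngt1, that of Gnb1 in cone-like and rod bipolar-like cells lay between 0.11 and 0.74, and several values at or below 0 rose above it. Among the values given above these were Gngt1 in WT and rd10-vehicle rod bipolar-like cells (0.04 and 0.28), Cnga1 in rd10-vehicle rod bipolar-like and cone-like cells (0.32 and 0.28), in rd10-TMB cone-like cells (0.00070), and Pdc in rd10-vehicle cluster 6 (0.51), where Cnga1 rose from 0.05 to 1.35 and the reference had 6 Nrl and 3 Nr2e3 UMIs. Cngb1 rested on 10 to 500 UMIs per library in the 9 clusters outside rods.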

Other observations

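The cone counterparts of the members had their highest levels in cone-like cells. Gnat2 was at 3094 CPM there in WT, 2647 with vehicle and 2611 with TMB, and its next highest levels were in the OFF cone bipolar-like clusters 7 (246, 354 and 294 CPM) and 8 (254, 223 and 239 CPM). Cone-like cells held 29.2, 38.6 and 31.3 Gnat2 UMIs per Gnat1 UMI, and rods held 187, 177 and 161 Gnat1 UMIs per Gnat2 UMI. The cone channel subunit Cngb3 was at 570, 451 and 486 CPM in cone-like cells, and Cnga3 at 112, 71.3 and 97.1 CPM.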
